A study of Mus musculus with 14 samples.

Results

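The data describe 10 genes of the CD40 and NF-kB pathway in germinal centre (GC) B cells of mice: Cd40, Traf1, Traf3, Nfkb1, Nfkb2, Rel, Rela, Relb, Nfkbia and Nfkbie. They were chosen by symbol, and all 10 had a row among the 9969 genes of the unique molecular identifier (UMI) table. A UMI marks a single captured mRNA molecule, so that copies made by PCR are counted once. C57BL/6 chimeras whose cells were 50% SykY317F and 50% wild type (WT) were immunized with NP-KLH, a hapten coupled to a carrier protein, and the GC B cells of their popliteal lymph nodes were sorted by zone 14 days later. There were 3 SykY317F light zone (LZ) libraries, 3 SykY317F dark zone (DZ) libraries, 4 WT LZ libraries and 4 WT DZ libraries. SykY317F carries phenylalanine in place of a tyrosine of Syk, the kinase that relays antigen receptor signals, and in a mixed chimera cells of both genotypes share 1 host environment. Whether mice were pooled, or each library had its own mouse, is not in the labels, so p-values measure the spread between these libraries.

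CD40 is a receptor of the tumour necrosis factor family through which helper T cells stimulate B cells in the LZ, where B cells also take up antigen; in the DZ they divide and mutate their antibody genes. CD40 binds TRAF adaptors and activates NF-kB by a canonical route, in which an inhibitor such as IkB alpha (Nfkbia) is degraded and dimers of RelA, c-Rel and p50 enter the nucleus, and by an alternative route, in which loss of TRAF3 allows p100 (Nfkb2) to be processed to p52, the partner of RelB. Several of these genes are known targets of NF-kB themselves, Nfkbia and Nfkb2 among them, which makes the pathway a set of feedback loops that act at the level of mRNA as well as of protein.

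These feedback genes are why the sequences just upstream of the transcription start are shown here. The 10-base kB consensus, the DNA motif that NF-kB dimers bind, was searched on both strands in windows of 250 bases before each start, from RefSeq on GRCm38.p6. Windows were available for 7 of the 10 genes. At least 1 match was present for 5 of those 7 genes (Rel, Nfkbia, Nfkbie, Traf3 and Nfkb2), in 7 of the 9 windows searched for the 7 genes, against 7.25% of all 32851 windows. A match is a description of the letters only and says nothing about binding in these cells. Each line runs 5′ to 3′ on the gene's own strand, and capitals mark the match or a run of overlapping matches.
Nfkbia (chr12:55492648-55492897, minus strand): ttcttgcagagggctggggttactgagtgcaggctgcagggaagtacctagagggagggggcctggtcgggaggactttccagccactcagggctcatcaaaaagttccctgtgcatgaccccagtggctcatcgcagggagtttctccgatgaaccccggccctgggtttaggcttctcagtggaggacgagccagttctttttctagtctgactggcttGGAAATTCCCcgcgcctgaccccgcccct
Nfkbie (chr17:45555450-45555699, plus strand): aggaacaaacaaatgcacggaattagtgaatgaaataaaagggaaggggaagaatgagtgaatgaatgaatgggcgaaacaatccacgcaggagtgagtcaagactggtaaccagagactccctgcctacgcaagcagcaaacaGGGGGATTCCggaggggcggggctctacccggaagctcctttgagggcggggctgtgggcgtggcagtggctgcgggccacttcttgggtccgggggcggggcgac
Traf3 (chr12:111166120-111166369, plus strand): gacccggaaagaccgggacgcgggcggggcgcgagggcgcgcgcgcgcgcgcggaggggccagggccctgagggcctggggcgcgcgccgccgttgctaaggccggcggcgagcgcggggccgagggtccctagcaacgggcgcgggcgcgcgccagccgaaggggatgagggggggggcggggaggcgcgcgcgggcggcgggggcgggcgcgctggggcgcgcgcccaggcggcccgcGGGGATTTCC
Rel (chr11:23770971-23771219, minus strand): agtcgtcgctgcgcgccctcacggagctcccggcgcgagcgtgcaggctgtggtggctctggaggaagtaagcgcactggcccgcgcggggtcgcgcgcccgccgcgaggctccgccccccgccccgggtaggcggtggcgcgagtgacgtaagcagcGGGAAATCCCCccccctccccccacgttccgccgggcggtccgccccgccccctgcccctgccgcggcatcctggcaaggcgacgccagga
Nfkb2, match farther from the start (chr19:46304693-46304713, plus strand): gtcacGGGAATTCCCCccctc
Nfkb2, match nearer to the start (chr19:46304721-46304736, plus strand): cgaaaGGGGCTTTCCc

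The match of Nfkbia lay at positions -29 to -20 from the start, that of Traf3 at -10 to -1, and that of Nfkbie at -106 to -97. Rel had 2 overlapping matches between -92 and -82. Nfkb2 had overlapping matches between -39 and -29 and a further one between -11 and -2 in the window shown, of which only the matches with neighbouring bases are printed because part of that window is exonic in another annotated transcript. Its other windows, from other starts, held 1 match each. The windows of Traf1 and Rela held no match, and Cd40, Nfkb1 and Relb were not examined.

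On GRCm38, Cd40 lies on chromosome 2 at 165055627 to 165072948 on the plus strand, Nfkb2 on chromosome 19 at 46304320 to 46312385 on the plus strand, and Nfkb1 on chromosome 3 at 135584655 to 135691547 on the minus strand. The last 299 bases of Nfkb2 overlap Psd and its first part AC114539.1, both on the opposite strand, Traf3 overlaps 4930595D18Rik on the opposite strand, and Nfkb1 overlaps the predicted gene Gm43430 on its own strand. The strand setting of the counting is not given in the sources used here, so counts of Nfkb2, Traf3 and Nfkb1 may include reads of these neighbours.

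Totals were 149641 to 379125 UMIs in SykY317F LZ, 381954 to 1413310 in SykY317F DZ, 499443 to 1600902 in WT LZ and 747948 to 1767898 in WT DZ, so the SykY317F LZ libraries were the shallowest. The SykY317F LZ libraries and SykY317F DZ replicate 4 also gave the fewest UMIs per 100 reads, 9.37 to 15.8, against 33.5 to 53.2 in the other libraries. Levels are given as CPM, UMI counts as a standard rate of the TMM-scaled library total. Syk averaged 414 ± 27.0 CPM in SykY317F LZ and 547 ± 68.9 CPM in SykY317F DZ (SD, n = 3 each), against 422 ± 61.4 CPM in WT LZ and 517 ± 57.6 CPM in WT DZ (SD, n = 4 each). The genotype is a substitution in the protein, so these counts cannot check it. GC B cell markers summed to 34855 to 45667 CPM in SykY317F LZ, 19008 to 33116 in SykY317F DZ, 20624 to 32308 in WT LZ and 20604 to 36214 in WT DZ, so that SykY317F LZ lay above both SykY317F DZ and WT LZ without overlap. Cd83, a marker of LZ cells, was higher in LZ (log2 fold change 1.0 ± 0.18 SE over both genotypes, edgeR adjusted p = 0.00848). Cxcr4, a marker of DZ cells, did not pass, with log2 fold changes of 0.23 ± 0.35 in SykY317F and -0.62 ± 0.30 in WT. Markers of naive and memory B cells summed to 2062 to 2277 CPM in SykY317F LZ, 1230 to 1978 in SykY317F DZ, 1015 to 1980 in WT LZ and 788 to 1112 in WT DZ. T cell markers summed to 56.7 to 129.8 CPM in SykY317F LZ, 80.6 to 191 in SykY317F DZ, 57.6 to 159 in WT LZ and 21.6 to 55.2 in WT DZ, with 9 of 13 listed genes in the table. Of these, Cd3d and Lat were detected in all 14 libraries and carried at least as much of the sum as the other 7 together in each of them. Icos was at 0 UMIs in 11 libraries, Pdcd1 in 8, Il7r in 5, Cd3e in 4, Cd3g in 4, Cd4 in 3 and Tcf7 in 2. Macrophage and myeloid markers summed to 841 to 1686 CPM in SykY317F LZ, 1166 to 2446 in SykY317F DZ, 1019 to 1986 in WT LZ and 1001 to 2162 in WT DZ, and Apoe alone made up most of this sum in every library. In bulk libraries fewer cells of a type and less RNA per cell cannot be told apart.

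Most of the pathway genes lay higher in LZ than in DZ, and Cd40 and Nfkb2 passed the test. The comparison asks whether CD40 and NF-kB mRNAs differ between the zone of T cell help and the zone of division. Of the 10 genes, 9 entered the test and Rel did not, because its counts were too low. Over both genotypes 2 of the 9 genes, Cd40 and Nfkb2, were higher in LZ at an adjusted p under 0.05 in edgeR's quasi-likelihood test, against 0.55% of all 7999 genes tested that were called higher. At an unadjusted p under 0.05, 5 of the 9 were higher (Cd40, Nfkb2, Relb, Nfkbia and Nfkbie; 6.36% of all genes). The median log2 fold change of the 9 genes was 0.39, against -0.03 for all tested genes. By genotype, the log2 fold change was above 0 for 8 of 9 genes in SykY317F (46.7% of all genes) and for 9 of 9 in WT (48.3%), and for 8 of 9 in both (28.1%). The medians were 0.29 against -0.04 for all genes in SykY317F and 0.50 against -0.02 in WT. These fold changes are relative to TMM scaling. With scaling by library size alone, the median of all genes for SykY317F fell to -0.19 and the values of Traf1 and Traf3 there were below 0, as were those of Traf1 and Nfkb1 over both genotypes.

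Within a single genotype no gene of the 9 passed after adjustment. In SykY317F edgeR called 0 of 9, against 0.0375% of all genes in either direction, with 2 at an unadjusted p under 0.05 and higher in LZ (Cd40 and Nfkb2; 4.04% of all genes). DESeq2 and limma voom called 0 there too. In WT edgeR called 0 of 9, against 0.188% of all genes, with 6 at an unadjusted p under 0.05 and higher in LZ (Cd40, Nfkb1, Nfkb2, Relb, Nfkbia and Nfkbie; 4.59% of all genes). DESeq2 called 1 of these (Cd40), where it called 97 of all 7999 genes, and limma voom 3 (Cd40, Nfkb2 and Relb), where it called 292. Libraries did not overlap between zones, with LZ higher, for 3 genes in SykY317F (Cd40, Nfkb2 and Rela; 6.56% of all genes) and for 3 in WT (Cd40, Nfkb1 and Nfkb2; 2.89%).

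**Figure D1:**
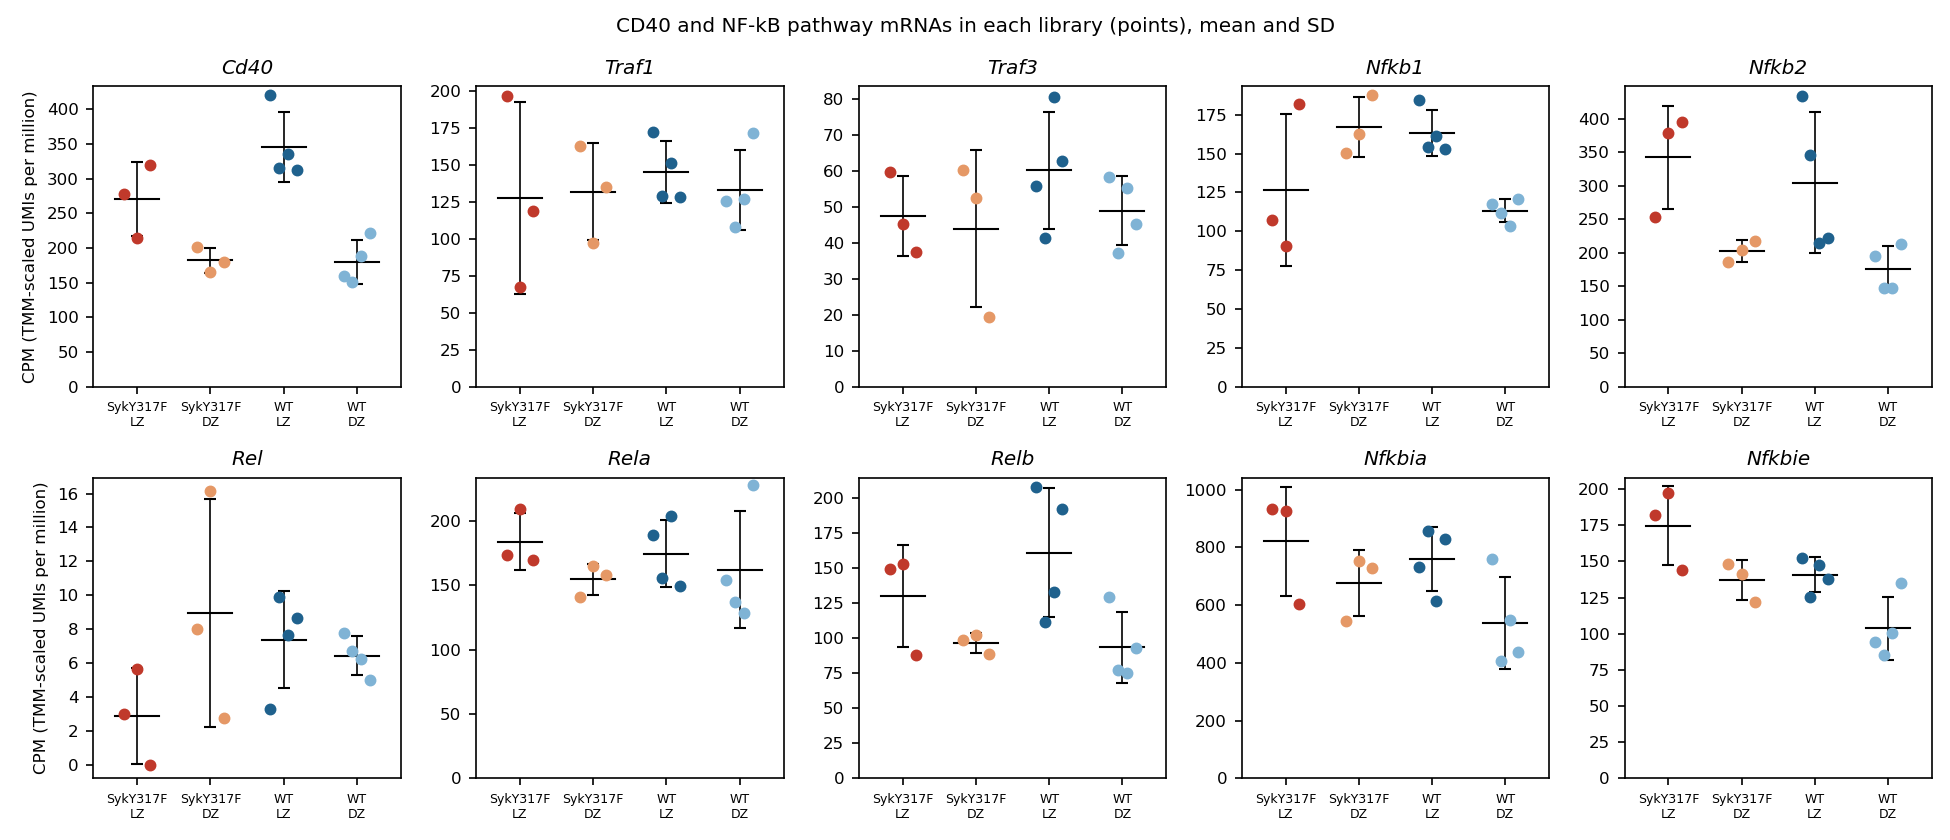
Level of each of the 10 genes in every library, in CPM (TMM-scaled UMIs, y axis from 0), by group on the x axis; points are libraries, bars the mean and the SD of 3 SykY317F or 4 WT libraries. Cd40 in LZ, at 215 to 420.2 CPM, lay above every DZ library of its own genotype, while Rel stayed at 16.1 CPM or less.

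Cd40, the receptor itself, was higher in LZ over both genotypes. It was measured at 278, 215 and 319.9 CPM in SykY317F LZ libraries, against 202, 166 and 179.7 CPM in SykY317F DZ libraries. In WT it was measured at 420.2, 315, 336 and 313 CPM in LZ libraries, against 160.5, 151, 189 and 222 CPM in DZ libraries. Every LZ library lay above every DZ library of its genotype, and 1 SykY317F LZ library, at 215 CPM, lay below the highest WT DZ library. Over both genotypes the fold was 1.68 (95% interval 1.34 to 2.12; log2 fold change 0.75 ± 0.16 SE, adjusted p = 0.0191). The log2 fold change was 0.57 ± 0.25 in SykY317F (adjusted p = 0.441) and 0.94 ± 0.20 in WT (adjusted p = 0.0656). In the authors' deposited table, Cd40 had a log2 fold change of 0.93 for WT LZ against WT DZ, with an adjusted p of 0.000363. The call over both genotypes was lost with read counts in place of UMIs (adjusted p = 0.0953) and on leaving out SykY317F DZ replicate 1 (0.0549), SykY317F LZ replicate 1 (0.0644) or SykY317F DZ replicate 4 (0.0609), while the log2 fold change stayed between 0.65 and 0.81.

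Most naive and memory B cell markers also lay higher in LZ, with exceptions in SykY317F and over both genotypes. Over both genotypes 7 of 10 tested markers had a log2 fold change above 0 (46.3% of all genes) and 3 below. In WT 10 of 10 were above 0 (48.3%), and in SykY317F 7 were above (46.7%) and 3 below. S1pr1 was lower in SykY317F LZ, at 17.9 to 22.6 CPM, than in SykY317F DZ, at 27.6 to 91.5 CPM. The SykY317F LZ libraries held only 6, 4 and 3 UMIs of S1pr1, close to the limit of detection. Cd38 averaged 80.3 CPM in SykY317F LZ and 32.1 CPM in SykY317F DZ, and Klf2 360 and 288 CPM, both with overlap of the groups. The 2 markers that passed were Fcer2a and Ccr6. Fcer2a, which encodes CD23, had a log2 fold change of 0.74 ± 0.18 over both genotypes (adjusted p = 0.0434), and the chemokine receptor gene Ccr6 one of 1.37 ± 0.29 (adjusted p = 0.025). The summed level of all listed markers, of which Fcer2a was the largest part in every library, did not overlap between zones in SykY317F. In WT 1 LZ library, at 1015 CPM, lay within the DZ range. Naive B cells also carry CD40, and the part of these markers in the difference was not tested.

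The TRAF adaptors did not pass. TRAF1 is an adaptor whose gene is a known target of NF-kB. Traf1 was measured at 197, 67.7 and 119 CPM in SykY317F LZ, 163, 97.5 and 135 CPM in SykY317F DZ, 172, 129.5, 152 and 129 CPM in WT LZ and 126, 108, 127 and 172 CPM in WT DZ. All 4 groups overlapped. Its log2 fold change between zones was 0.01 in SykY317F (95% interval -0.66 to 0.68) and 0.12 in WT (-0.42 to 0.66). TRAF3 holds the alternative route in check. Traf3 was measured at 37.6 to 59.7 CPM in SykY317F LZ, 19.4 to 60.3 in SykY317F DZ, 41.5 to 80.6 in WT LZ and 37.3 to 58.2 in WT DZ, again with overlap of all groups. Its log2 fold change was 0.07 in SykY317F (-0.77 to 0.91) and 0.29 in WT (-0.33 to 0.92), intervals that hold changes of either sign.

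Nfkb2, the p100 and p52 subunit of the alternative route, was higher in LZ over both genotypes. It was measured at 254, 378 and 395 CPM in SykY317F LZ libraries, against 186, 204 and 218 CPM in SykY317F DZ libraries. WT LZ libraries gave 434, 346, 215 and 223 CPM for Nfkb2, against 195.5, 148, 148 and 214 CPM in WT DZ libraries. Zones did not overlap in either genotype, but WT LZ replicates 3 and 5 lay within 10 CPM of the highest WT DZ library while replicates 1 and 2 lay well above it. Over both genotypes the fold was 1.70 (95% interval 1.30 to 2.24; log2 fold change 0.77 ± 0.19, adjusted p = 0.0445). The log2 fold change was 0.75 ± 0.29 in SykY317F and 0.79 ± 0.24 in WT (adjusted p = 0.394 and 0.236). The difference between these zone effects was -0.05 ± 0.38, with a 95% interval of -0.83 to 0.74.

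The call of Nfkb2 rested close to the threshold. Its adjusted p over both genotypes was 0.115 with read counts and 0.0744 with the replicate number as a block, and it reached 0.145 when single libraries were left out. On leaving out single libraries it stayed called only without WT LZ replicate 3, WT LZ replicate 5 or WT DZ replicate 5. Of 22 alternatives 7 called it, and its log2 fold change stayed between 0.65 and 0.85.

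Relb, the partner of p52, had LZ values that spread more. It was measured at 149, 152 and 87.8 CPM in SykY317F LZ libraries, against 98.7, 102 and 88.5 CPM in SykY317F DZ libraries. WT LZ libraries held 207, 112, 132 and 192 CPM of Relb, against 129, 76.8, 74.8 and 92.9 CPM in WT DZ libraries. Zones overlapped in both genotypes. SykY317F LZ replicate 4, at 87.8 CPM on 14 UMIs, lay just below the lowest SykY317F DZ library, at 88.5 CPM on 32 UMIs. These counts are too low to order those libraries. Its log2 fold change was 0.62 ± 0.20 over both genotypes (adjusted p = 0.143), 0.44 ± 0.31 in SykY317F and 0.80 ± 0.25 in WT, where limma voom gave an adjusted p of 0.034.

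**Figure D2:**
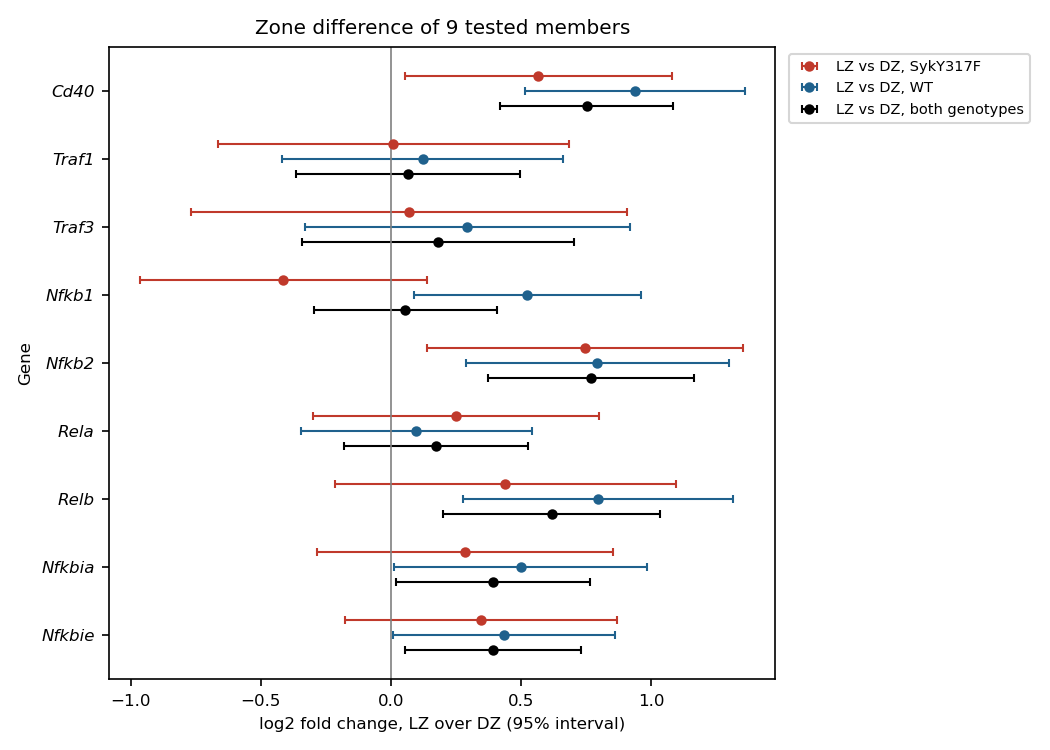
Log2 fold change of LZ over DZ (x axis, with 95% interval) for the 9 tested genes (y axis) in SykY317F, in WT and over both genotypes. Cd40 and Nfkb2 have intervals above 0 in all 3 estimates, and Nfkb1 has estimates of opposite sign in SykY317F (-0.41) and WT (0.52).

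Nfkb1, which encodes p105 and p50 of the canonical route, had zone differences of opposite sign in the 2 genotypes, neither of which passed. In SykY317F LZ libraries it was measured at 107, 90.3 and 182 CPM, on only 36, 16 and 29 UMIs. SykY317F DZ libraries gave 150.3, 163 and 188 CPM of Nfkb1. In WT it was measured at 184, 154, 161 and 153 CPM in LZ libraries, against 118, 112, 103 and 121 CPM in DZ libraries. In WT all LZ libraries lay above all DZ libraries, and in SykY317F 2 of 3 LZ libraries lay below all DZ libraries while the third lay within their range. The log2 fold change was -0.41 ± 0.27 in SykY317F (adjusted p = 0.628) and 0.52 ± 0.21 in WT (adjusted p = 0.451). Their difference was -0.94 ± 0.34 (95% interval -1.64 to -0.24), with an unadjusted p of 0.0113 and an adjusted p of 0.991 in edgeR. Nfkb1 was the only 1 of the 9 genes with an unadjusted p under 0.05 for that difference, where 3.18% of all genes had such a p with a negative value. The difference ran from -1.26 to -0.80 when single libraries were left out.

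Between genotypes, Nfkb1 was also the gene that stood apart in DZ. Nfkb1 averaged 167 ± 19.2 CPM in SykY317F DZ libraries (SD, n = 3), against 113 ± 7.67 CPM in WT DZ libraries (SD, n = 4), and the groups did not overlap (3.56% of all genes were higher without overlap). The log2 fold change was 0.55 ± 0.23, with an unadjusted p of 0.0239 and an edgeR adjusted p that rounds to 1. The authors' deposited table gives 0.55 for this comparison of Nfkb1, with an adjusted p of 0.151. In LZ, Nfkb1 averaged 127 ± 48.7 CPM in SykY317F and 163 ± 14.5 CPM in WT (SD, n = 3 and n = 4), a log2 fold change of -0.39 ± 0.25 (adjusted p = 0.648). T cell markers followed the same order of groups in DZ, at 80.6 to 191 CPM in SykY317F and 21.6 to 55.2 CPM in WT, as did naive and memory B cell markers, at 1230 to 1978 CPM in SykY317F and 788 to 1112 CPM in WT. The macrophage complement genes did not overlap either, C1qb at 18.8 to 60.8 CPM in SykY317F DZ and 4.47 to 8.79 CPM in WT DZ, and C1qc at 16.8 to 38.7 CPM in SykY317F DZ and 0.746 to 4.45 CPM in WT DZ. C1qa, the third of these genes, lay at 22.2 to 35.9 CPM in SykY317F DZ and 1.49 to 7.12 CPM in WT DZ. The other detected macrophage and myeloid markers overlapped between these groups. Lyz2 lay at 126 to 301 CPM in SykY317F DZ and 37.5 to 227 CPM in WT DZ. Csf1r reached 24.0 CPM in WT DZ and at most 6.05 CPM in SykY317F DZ. All 8 tested macrophage and myeloid markers had a log2 fold change above 0 in this comparison (45% of all genes). Between WT zones T cell markers also did not overlap, at 57.6 to 159 CPM in LZ and 21.6 to 55.2 CPM in DZ. For the difference of zone effects, the medians were -2.70 for the 3 tested T cell markers and -1.85 for the 8 tested macrophage and myeloid markers. The part of any of these in the Nfkb1 values was not tested.

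No pathway gene passed between genotypes. In each comparison of genotypes 0% of all genes passed in edgeR. In DZ 0 of 9 genes passed, with 1 at an unadjusted p under 0.05 (Nfkb1), where 2.83% of all genes were higher at that p. In LZ 0 of 9 passed, with 0 at an unadjusted p under 0.05, where 3.64% of all genes were higher and 6.18% lower. For both zones together 0 of 9 passed, with 1 at an unadjusted p under 0.05 (Nfkbie), where 3.95% of all genes were higher. DESeq2 and limma voom also called 0 of the 9 genes in each of these 3 comparisons and in the difference of zone effects. Values above 0 were found for 6 of 9 genes in DZ (45% of all genes) and for 4 of 9 in LZ (46%). The median of the 9 genes was 0.06 in DZ, against -0.04 for all genes, and -0.13 in LZ, against -0.06. For the difference of zone effects 1 of 9 genes, Rela, had a value above 0 (46.3% of all genes).

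Cd40 averaged 271 ± 53.0 CPM in SykY317F LZ and 346 ± 50.5 CPM in WT LZ (SD, n = 3 and n = 4), and the groups overlapped. Its log2 fold change there was -0.35 ± 0.23 (95% interval -0.83 to 0.12, adjusted p = 0.649). In DZ it averaged 183 ± 18.01 CPM in SykY317F and 180.4 ± 31.9 CPM in WT (SD, n = 3 and n = 4), a log2 fold change of 0.02 ± 0.22 (95% interval -0.44 to 0.48). The zone effect of Cd40 in SykY317F minus that in WT was -0.37 ± 0.32, with a 95% interval of -1.03 to 0.29 that holds a smaller, an equal and a larger effect in SykY317F.

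**Figure D3:**
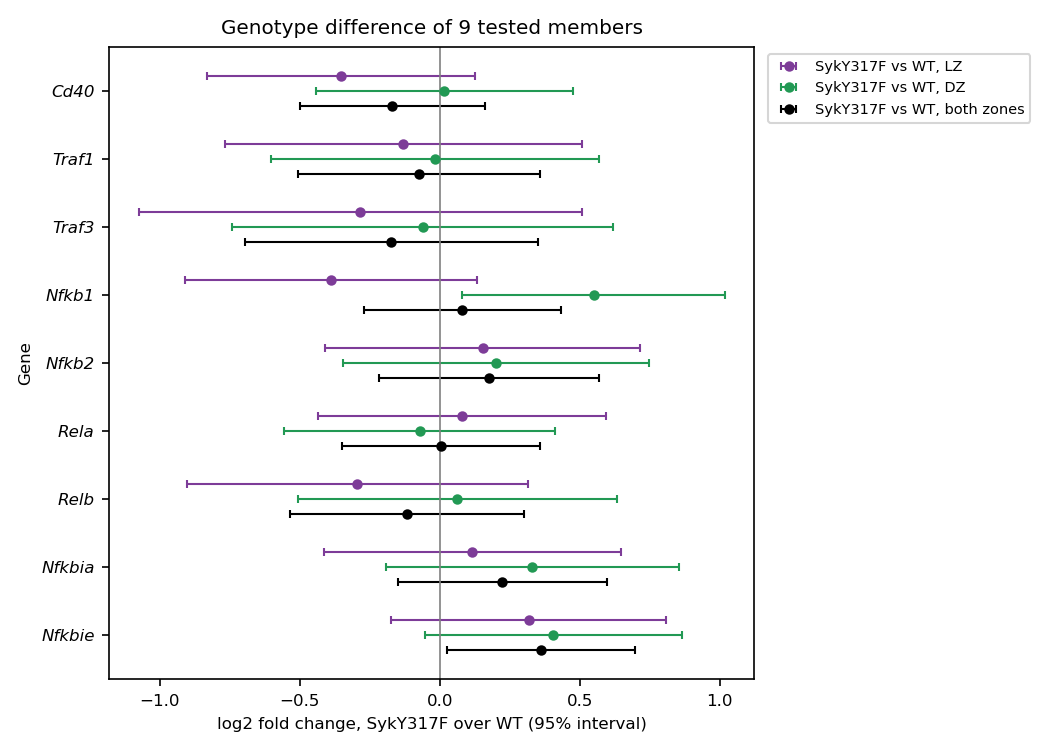
Log2 fold change of SykY317F over WT (x axis, with 95% interval) for the 9 tested genes (y axis) in LZ, in DZ and over both zones. The interval lies above 0 for Nfkb1 in DZ (0.08 to 1.02) and for Nfkbie over both zones (0.03 to 0.70), and neither passed after adjustment.

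The IkB inhibitors leaned towards LZ and, for Nfkbie, towards SykY317F, without a call. IkB epsilon, encoded by Nfkbie, retains RelA and c-Rel dimers in the cytoplasm. Nfkbie was measured at 182, 198 and 144 CPM in SykY317F LZ libraries, against 148, 141 and 122 CPM in SykY317F DZ libraries. In WT it was measured at 152, 126, 148 and 138 CPM in LZ libraries, against 94.5, 85.0, 101 and 135 CPM in DZ libraries. Zones overlapped by 1 LZ library in each genotype, and the WT DZ libraries were the lowest group apart from replicate 5. Between zones, Nfkbie had a log2 fold change of 0.39 ± 0.16 over both genotypes (adjusted p = 0.264). For genotype over both zones it was 0.36 ± 0.16, with an unadjusted p of 0.0364 and an adjusted p of 0.463.

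Nfkbia encodes IkB alpha, the inhibitor that NF-kB induces fastest. It was measured at 934, 926 and 602 CPM in SykY317F LZ libraries, against 544, 753 and 729.8 CPM in SykY317F DZ libraries. WT LZ libraries held 732, 858, 614 and 829.7 CPM of Nfkbia, against 759.8, 406, 549 and 437 CPM in WT DZ libraries. Zones overlapped in both genotypes, through SykY317F LZ replicate 4 and WT DZ replicate 2. For zone, Nfkbia had a log2 fold change of 0.39 ± 0.18 over both genotypes (adjusted p = 0.323), and that for genotype was 0.12 ± 0.26 in LZ and 0.33 ± 0.25 in DZ.

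Rela, the main activating subunit of the canonical route, averaged 184 ± 21.8 CPM in SykY317F LZ and 154 ± 12.3 CPM in SykY317F DZ (SD, n = 3 each). It averaged 174 ± 26.0 CPM in WT LZ and 162 ± 45.4 CPM in WT DZ (SD, n = 4 each). SykY317F zones did not overlap, at 169 to 209 CPM in LZ and 141 to 165 CPM in DZ, while WT zones did, with WT DZ replicate 5 the highest library of all at 228 CPM. The log2 fold change for zone was 0.17 over both genotypes (95% interval -0.18 to 0.53).

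Rel, which encodes c-Rel, was close to the limit of detection. SykY317F LZ libraries held 1, 1 and 0 UMIs, against 11, 24 and 1 in SykY317F DZ libraries. WT LZ libraries held 3, 10, 4 and 15 UMIs, against 6, 9, 7 and 8 in WT DZ libraries. In the SykY317F LZ library with 0 UMIs, a floor of 3 UMIs corresponds to 18.8 CPM, above the 16.1 CPM of the highest library, so at this depth its level could not be told from that of any other library. Relative to the scaled totals, the ratio of LZ to DZ was 0.267 in SykY317F (exact binomial 95% interval 0.0311 to 1.04, 2 against 36 UMIs) and 1.23 in WT (0.726 to 2.10, 32 against 30 UMIs). These intervals cover counting error only, and 24 of the 36 SykY317F DZ UMIs came from replicate 2.

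Shares among the 5 subunit genes do not depend on scaling between libraries. UMIs were counted at transcript ends, so these shares do not grow with transcript length. Nfkb2 took the largest mean share in each group, 43.2% ± 5.51 in SykY317F LZ, 32.2% ± 0.999 in SykY317F DZ, 36.9% ± 7.73 in WT LZ and 31.9% ± 0.767 in WT DZ (SD, n = 3 for SykY317F and n = 4 for WT). The SykY317F LZ range, 37.0% to 47.4%, lay above the SykY317F DZ range, 31.4% to 33.3%, while WT LZ, at 29.9% to 44.5%, spanned the WT DZ range of 30.7% to 32.4%. Nfkb1 took 25.03% to 28.7% in SykY317F DZ, above the 10.8% to 21.8% in SykY317F LZ and also above the 18.3% to 23.3% in WT DZ. Rela took 18.5% to 28.3% in WT LZ and 25.5% to 34.5% in WT DZ. Rel took at most 2.48% in any library. These shares are a description with no test, and with read counts the mean share of Nfkb1 in SykY317F DZ was 18.2% and that of Nfkb2 in SykY317F LZ 51.8%.

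**Figure D4:**
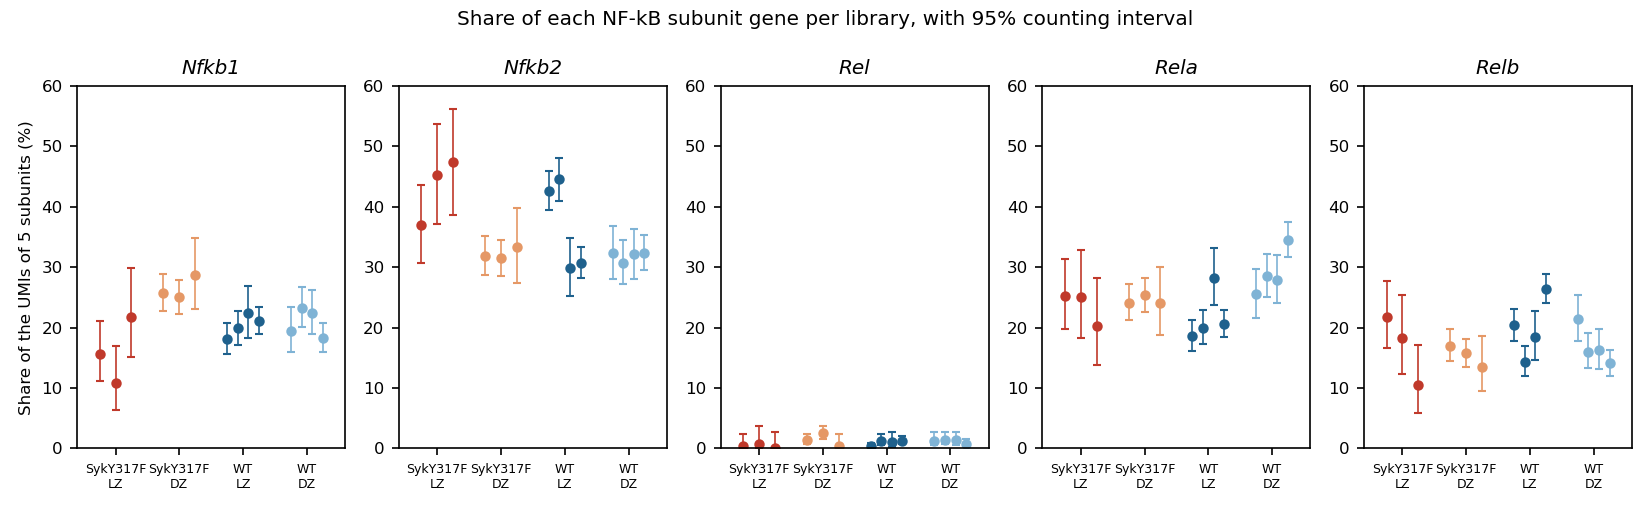
Share of the UMIs of Nfkb1, Nfkb2, Rel, Rela and Relb that each gene took in every library (y axis, percent), by group on the x axis, with exact binomial 95% intervals that cover counting error only. Nfkb2 shares in SykY317F LZ lie above those in SykY317F DZ, and Nfkb1 shares in SykY317F DZ lie above those in WT DZ.

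Other genes of the pathway were read from lists. Of 26 tested genes among CD40 and NF-kB targets, 23 had a log2 fold change above 0 for LZ over DZ in both genotypes together (46.3% of all genes), with a median of 0.52 against -0.03 for all genes. At an unadjusted p under 0.05, 8 were higher and 1 lower (6.36% and 7.94% of all genes). Only Cd83 (1.0 ± 0.18) passed upward, the same gene that served above as a marker of LZ cells. Gadd45b passed downward (-1.26 ± 0.16, adjusted p = 0.000205). Gadd45b, a stress-response gene that NF-kB induces, averaged 181 ± 15.7 CPM in SykY317F LZ and 523 ± 89.8 CPM in SykY317F DZ (SD, n = 3 each), and 366 ± 40.5 CPM in WT LZ and 734 ± 107 CPM in WT DZ (SD, n = 4 each). The adhesion gene Icam1 had a log2 fold change of 0.55 ± 0.17 (adjusted p = 0.114) and the chemokine gene Ccl22 one of 1.70 ± 0.58 (adjusted p = 0.162). Ccl22 was close to the limit of detection. SykY317F LZ libraries held 12 UMIs of it in all, 10 of them in 1 library, and SykY317F DZ libraries held 13.

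Among the adaptors and kinases that link CD40 and the antigen receptor to NF-kB, 11 of 20 tested genes had a log2 fold change above 0 over both genotypes (46.3% of all genes), with a median of 0.12. In edgeR 0 passed, with 4 higher and 1 lower at an unadjusted p under 0.05 (6.36% and 7.94% of all genes). Ikbke, an IkB kinase relative, had a log2 fold change of 1.12 ± 0.32 (adjusted p = 0.0924), the linear ubiquitin ligase gene Rnf31 had 0.54 ± 0.18 (adjusted p = 0.152), and the adaptor gene Traf5 had -0.53 ± 0.19 (adjusted p = 0.181).

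Of 14 tested genes for other inhibitors and atypical IkB proteins, 8 had a log2 fold change above 0 (46.3% of all genes), with a median of 0.10. None of the 14 passed in edgeR, and 3 were higher at an unadjusted p under 0.05 (6.36% of all genes). Nfkbid, an atypical nuclear IkB with the largest p of these 3, had 0.86 ± 0.35 (adjusted p = 0.264). Bcl3, a coactivator of p50 and p52, was not among the 3 and had 0.50 ± 0.25 (adjusted p = 0.363). Of 5 tested tumour necrosis factor receptors, 4 had a log2 fold change above 0, with a median of 0.49, and 0 passed in edgeR, with 1 higher at an unadjusted p under 0.05. That gene was Tnfrsf13c, the BAFF receptor that feeds the alternative route, at 0.49 ± 0.16 (adjusted p = 0.132). Between genotypes 0 genes of these 4 lists, with 26, 20, 14 and 5 tested genes, passed in edgeR. For both zones together 7 of these genes were higher and 3 lower at an unadjusted p under 0.05. Of all genes, 3.95% were higher and 6.1% lower at that p. The smallest adjusted p for both zones together was that of Gadd45b, with a log2 fold change of -0.75 ± 0.16 (adjusted p = 0.119).

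**Figure D5:**
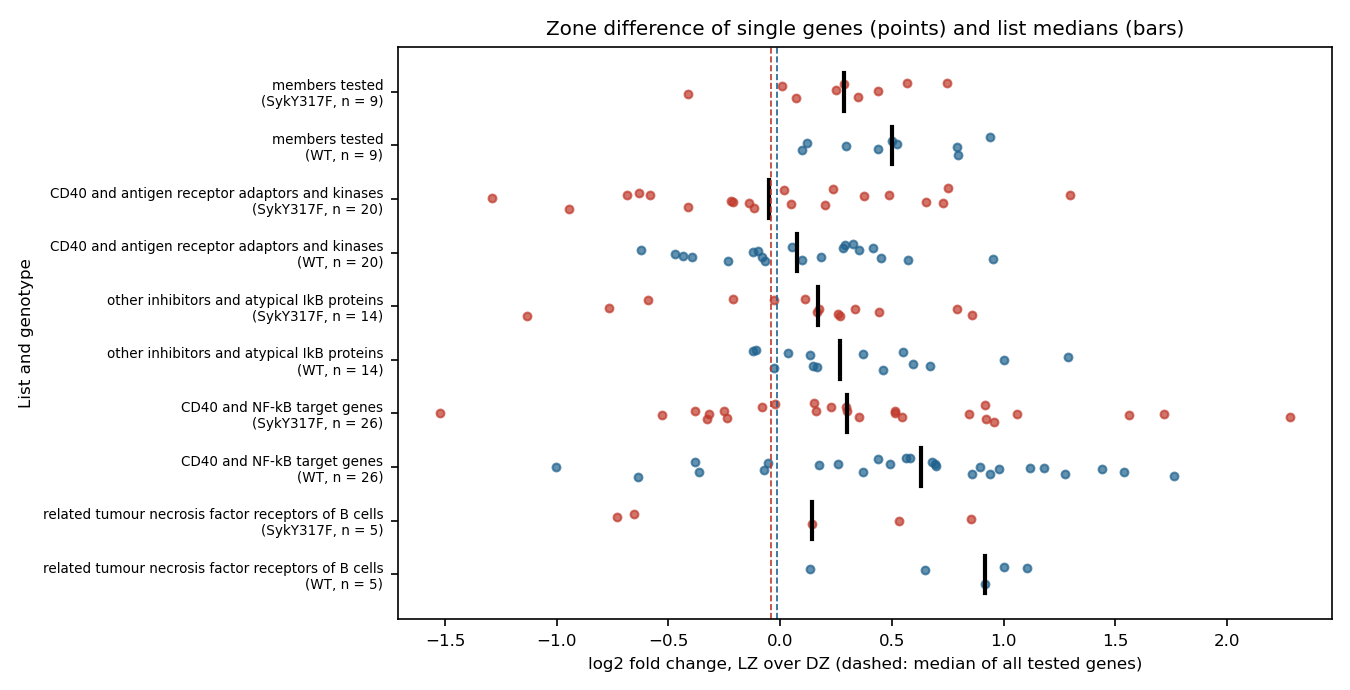
Log2 fold change of LZ over DZ (x axis) of each tested gene (points) in the 9 pathway genes and in 4 lists, by genotype (y axis), with the list median as a bar and the median of all tested genes as a dashed line. The medians of the 9 pathway genes and of the target genes lie to the right of the dashed lines in both genotypes, at 0.29 and 0.30 in SykY317F and at 0.50 and 0.63 in WT.

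Over the 14 libraries, the log2 CPM of the 9 tested genes were loosely related to each other. Pearson's r ran from -0.20 to 0.70 over the 36 pairs, with a median of 0.31, and was highest for Cd40 with Nfkb2. With group means removed, r ran from -0.47 to 0.73 with a median of 0.09. It was then highest for Cd40 with Traf1, and was 0.34 for Cd40 with Nfkb2. The genes whose log2 CPM was most like that of Cd40, among 5441 genes with enough UMIs, were Zfp362 (r = 0.92), Cfp (r = 0.89), Slc23a2 (r = 0.87), Hvcn1 (r = 0.87) and Rab35 (r = 0.85). These points share the libraries, their depth and their scaling, and r is given as a description.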

How the data were processed

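Per the labels' protocols, oligo(dT) beads captured mRNA from sorted cells, and libraries followed a variation of MARS-seq. STAR 2.4.2a, HTSeq, cutadapt, DESeq, DESeq2 and the build mm10 are listed, without roles, in the submitters' processing notes. The authors deposited whole-number UMI counts and read counts per gene, and log2 fold changes with adjusted p-values. Their 28 columns of normalised and regularised values were not used.

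UMI counts were filtered with filterByExpr (7999 of 9969 genes kept, 99.3% of UMIs), given TMM factors and tested with edgeR 4.0.16 (R 4.3.3, robust quasi-likelihood F test, 4 groups). The Benjamini-Hochberg adjustment ran over all 7999 genes in each of 7 comparisons, with a threshold of 0.05. SE is the log2 fold change divided by the square root of F. Alternatives were DESeq2 1.42.0, limma 3.58.1 voom with quality weights, other scalings and filters, read counts (11912 unambiguous symbols), a replicate block and leaving out each library.

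The pathway genes, lists and comparisons were chosen with earlier results of these data known. Named genes are all 10 pathway genes, up to 4 per list with the smallest zone p and 2 with the smallest genotype p, the 5 most like Cd40, and Syk, Cxcr4, Cd83 and Cd86; 1 gene of a list is not reported here. On simulated counts the test recovered 38 of 100 genes changed 2-fold for zone over both genotypes (7817 genes run), 21 for WT zones (7783), 6 for SykY317F zones (7753) and 0 for the interaction of zone and genotype (7773). Of 100 genes changed 4-fold it recovered 89, 80, 60 and 30.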

Additional observations from a re-analysis of the deposited data

How the results depend on the processing

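The count of called pathway genes depended on the setting in the zone comparisons. In WT it was 0 in the reported fit, 1 with DESeq2's Wald test, 3 with limma voom, 1 with a minimum of 20 UMIs in 3 libraries, and 0 to 1 on leaving out single libraries, where Cd40 was called without WT DZ replicate 5 (adjusted p = 0.0354). Over both genotypes it was 2 in the reported fit, 1 with scaling by library size, 1 with no filter, 0 with read counts and 1 with the replicate block, and 0 to 2 on leaving out single libraries. Cd40 was called in 18 of 22 alternatives. In the other 5 comparisons it stayed at 0. Deviations of same-numbered libraries from their group means correlated at -0.57 to 0.24 (median 0.14, 6 pairs) between zones of 1 genotype, -0.21 to 0.23 (median 0.11, 4 pairs) between genotypes in 1 zone and 0.097 to 0.34 (median 0.25, 4 pairs) otherwise, against medians of 0.020, -0.043 and -0.075 for different numbers. Not every such pair exceeded 0.1, so the numbers were not taken as pairs, but this rule cannot exclude that they mark shared mice. With the block, edgeR lost the call of Nfkb2 over both genotypes (adjusted p = 0.0744) and changed no other call of a pathway gene.

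Over all genes, WT zone calls numbered 15, but 97 with DESeq2, 292 with limma voom, 6 with both groups fitted alone, 0 with read counts and 4 without the 4 libraries under 400000 UMIs. SykY317F zone calls numbered 3, but 9 with library-size scaling, 42 with DESeq2, 20 with read counts, 1 with both groups alone and 1 with the block. Calls over both genotypes numbered 114, but 235 with DESeq2, 200 with limma voom and 49 with read counts. Genotype calls numbered 0, but 43 with DESeq2, 54 with read counts and 1 with library-size scaling in LZ, 2 with DESeq2 in DZ, and 47 with DESeq2, 7 with limma voom and 10 with read counts for both zones. On leaving out single libraries, all-gene calls numbered 1 (without WT LZ replicate 2) to 26 (without WT LZ replicate 3) for WT zones, 0 (without SykY317F DZ replicates 1 or 4 or LZ replicate 2) to 10 (without SykY317F DZ replicate 2) for SykY317F zones, 42 (without SykY317F DZ replicate 1) to 152 (without WT DZ replicate 5) over both genotypes, 0 to 5 for genotype in LZ (5 without WT DZ replicate 5) and 0 to 5 for both zones (5 without WT LZ replicate 3).

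Signs turned only for log2 fold changes that were not called, and the cause was not tested. For SykY317F zones Traf1 had -0.13 with library-size scaling, -0.057 with limma voom, -0.018 with no filter, -0.040 with read counts and -0.061 with the block, and Traf3 -0.10 with library-size scaling. Over both genotypes Traf1 had -0.0055 with library-size scaling and -0.024 with the block, and Nfkb1 -0.0021 with library-size scaling. For genotype in DZ, Traf1 had 0.00014 with DESeq2 size factors, 0.022 with library-size scaling, 0.19 with limma voom, 0.025 with both groups alone and 0.19 with read counts. Traf3 had 0.035 with limma voom and 0.24 without the 4 shallow libraries, and Rela 0.12 with limma voom, 0.17 with read counts and 0.048 with the block. Relb had -0.17 with read counts and -0.041 with the block, and Cd40 -0.056 with the block. In LZ, Traf1 had 0.065 and Nfkbia -0.14 with read counts, Nfkbia -0.019 with the block and Rela -0.026 with library-size scaling. For both zones Traf1 had 0.040 with limma voom and 0.13 with read counts, Nfkb1 -0.026 with read counts, Rela -0.026 with library-size scaling and -0.023 with no filter, and Relb 0.054 with limma voom. The difference of zone effects was 0.0033 with read counts and 0.0036 with the block for Nfkb2, and -0.0065 with limma voom and -0.068 with read counts for Rela.

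On leaving out single libraries, signs also turned within these ranges. For SykY317F zones they were -0.52 to 0.25 for Traf1 and -0.22 to 0.33 for Traf3, and over both genotypes -0.20 to 0.18 for Traf1 and -0.11 to 0.12 for Nfkb1. For genotype in DZ they were -0.075 to 0.17 for Cd40, -0.23 to 0.17 for Traf1, -0.33 to 0.21 for Traf3, -0.17 to 0.17 for Rela and -0.028 to 0.25 for Relb. In LZ they were -0.67 to 0.13 for Traf1, -0.048 to 0.16 for Rela and -0.0100 to 0.28 for Nfkbia. For both zones they were -0.34 to 0.061 for Traf1, -0.086 to 0.16 for Nfkb1 and -0.057 to 0.12 for Rela. For the difference of zone effects they were -0.64 to 0.13 for Traf1, -0.51 to 0.033 for Traf3, -0.20 to 0.13 for Nfkb2, -0.099 to 0.25 for Rela and -0.28 to 0.012 for Nfkbie.

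Rel could not be tested at this depth, and the SykY317F LZ libraries were the shallowest. A fit of both groups alone was not run where a comparison uses all 4 groups, and leaving out the 4 shallow libraries was run for WT zones and for genotype in DZ, since it leaves no SykY317F LZ library.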
